A study of Bos taurus and Cervus elaphus with 24 samples.

Results

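Genes of glucose uptake and glycolysis, 10 in all, were followed in the blood of dairy cattle and deer: the glucose transporters SLC2A1, SLC2A3 and SLC2A6, the hexokinase HK3, the bifunctional regulators PFKFB3 and PFKFB4, and the enzymes GAPDH, PGK1, ENO1 and LDHA. They were found as every probe of the Agilent bovine array, control spots left out, whose gene name in the spot files is one of these 10 symbols. That gave 37 of 43653 probes, for 10 of the 15650 symbols the array could be matched to: 3 probes for SLC2A1, 6 for SLC2A3, 2 for SLC2A6, 2 for HK3, 3 for PFKFB3, 2 for PFKFB4, 8 for GAPDH, 3 for PGK1, 5 for ENO1 and 3 for LDHA. All 37 were bright enough to be tested in every comparison below, and none was saturated.

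Glycolysis splits glucose into pyruvate in the cytosol and yields ATP without oxygen, and lactate dehydrogenase turns the pyruvate into lactate. Neutrophils, with few mitochondria, draw most of their ATP from this pathway, and activated monocytes and lymphocytes raise it. Ruminants absorb little glucose from the gut and make most of it in the liver, and at peak lactation the udder takes up much of that glucose to make lactose.

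The samples were 24 arrays in 6 groups of 4: cows of the Holstein-Friesian breed (HF, a high-yielding dairy breed) in the dry period and in peak lactation, cows of the Polish Red breed (PR, a local breed) in both states, and deer (Cervus elaphus) in both states. The series text says that 4 HF cows, 4 PR cows and 4 deer each gave blood in both states. The labels name no treatment and no ages, and their subject number was read as the animal. Blood went into tubes that fix RNA on collection, and the labels name the material peripheral blood nuclear cells. Animal RNA was labelled with Cy5 throughout and set against a Cy3 reference pooled from 20 further cattle, so a value is the log2 ratio of the animal's signal to the cattle reference, and deer RNA was measured on cattle probes.

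Depth and signal differed among the arrays. Median Cy5 spot intensity was 109 to 255 on 23 arrays, with 30835 to 39110 probes well above background, and 2038 with 43635 probes on PR dry replicate 1. Spike-in correlations in the file headers were 0.17 to 0.40 on 5 arrays (those of HF animals 2 and 3 and PR dry replicate 1) and at least 0.90 on the others. The log2 ratios of deer lactation replicates 2 and 4 were less spread than on the other 6 deer arrays. The arrays sat on 10 slides with 4 positions each. No slide held both cattle and deer, so slide and species cannot be told apart, and all 4 HF dry arrays sat at position 1 while the HF lactation arrays sat at position 3 or 4. Markers of neutrophils, monocytes, T, B and NK cells, platelets and erythroid cells were all measured, so the RNA is that of mixed blood. In such bulk samples, fewer cells of a type and less RNA per cell cannot be told apart.

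All probes are 60 bases long. On the UMD 3.1 (bosTau6) cattle assembly that the files use, 23 of the 37 have coordinates no longer than that and 14 span a longer stretch. The probes printed here are those on which later results turn: 3 GAPDH probes that share a site but differ at single bases, and probes of SLC2A6, SLC2A3, ENO1 and LDHA whose differences between states or species are far from those of the brightest probe of the gene. The coordinates come from the files. Exon or UTR positions were not assigned, since no annotation of that assembly was used here. Capitals mark the bases at which the 3 GAPDH probes differ from each other.
GAPDH A_73_P082516, chr5:104239012-104239162, minus strand: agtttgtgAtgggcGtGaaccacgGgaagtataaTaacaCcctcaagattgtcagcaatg
GAPDH A_73_P108926, chr5:104239006-104239157, minus strand: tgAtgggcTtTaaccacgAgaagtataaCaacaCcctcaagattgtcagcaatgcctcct
GAPDH A_73_P195967, chr5:104239009-104239160, minus strand: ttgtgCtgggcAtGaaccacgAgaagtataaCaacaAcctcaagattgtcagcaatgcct
SLC2A6 A_73_P335806, chr11:104418223-104419155, minus strand: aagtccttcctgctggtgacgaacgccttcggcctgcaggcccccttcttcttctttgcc
SLC2A3 A_73_P452126, chr5:101896597-101896605, a placed stretch of 9 bases, minus strand: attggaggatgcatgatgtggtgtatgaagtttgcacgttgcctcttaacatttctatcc
ENO1 A_73_P456551, chr16:45406713-45408070, plus strand: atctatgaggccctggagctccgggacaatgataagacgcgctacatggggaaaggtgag
LDHA A_73_P362966, chr29:26547482-26548203, minus strand: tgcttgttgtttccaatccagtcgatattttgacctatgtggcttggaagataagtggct

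The first GAPDH probe overlaps the second by 54 bases, of which 92.6% are identical, with the changes G15T, G17T, G25A and T35C counted from 1 at the 5′ end of A_73_P082516. Against the third it overlaps by 57 bases, 91.2% identical, with A9C, G15A, G25A, T35C and C40A on the same count. Near-identical copies of GAPDH are common in mammalian genomes, and which copy a probe reads cannot be told from these files: the brightest GAPDH probe, A_73_P475903, is placed at chr1:93140380-93140439 and the others on chromosome 5. The polyadenylation signal AATAAA, searched on the probe strand alone, stands in 6 of the 37 probes (16.2%), against 9.35% of all 43653. A stop codon in all 3 forward frames, which an internal coding stretch would lack, is found in 3 of the 37 (8.11%), against 14.4% of all probes.

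Each gene is described first by its brightest probe, the one with the highest mean intensity over the 24 arrays. These lie at chr3:103931015-103931074 for SLC2A1, chr5:101896919-101896978 for SLC2A3, chr11:104417539-104417598 for SLC2A6, chr7:39693265-39693324 for HK3, chr13:17380768-17380827 for PFKFB3, chr22:51933062-51933765 for PFKFB4, chrX:79283018-79283077 for PGK1, chr16:45416399-45416458 for ENO1 and chr29:26544123-26544182 for LDHA. Differences are on the log2 scale with their standard error (SE) from limma, a linear model over all probes. A probe is called at a Benjamini-Hochberg adjusted p under 0.05 over all probes tested.

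In HF cows, 32 of the 37 probes had a higher mean ratio in peak lactation than in the dry period, and the 5 that did not belonged to SLC2A1 and HK3. No probe was called by limma: 0 of 37 passed, against 0.00906% of 33101 probes, and the lowest adjusted p was 0.17 for a SLC2A6 probe. Without adjustment 18 of the 37 (48.6%) were higher at p under 0.05 and 0 were lower, against 4.83% of all probes higher. The groups did not overlap for 10 probes (27.0%), all higher in lactation, against 3.31% of all probes, and 47.2% of all probes had a positive difference. The median over the 37 was 0.38, against -0.01 over all probes tested; many of the 37 read the same transcript and are not independent.

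SLC2A6, a hexose transporter placed on internal membranes in mouse macrophages, had the HF difference nearest to a call. Its ratios by the brightest probe were -0.85, -1.01, -1.05 and -0.64 in the dry period and -0.19, -0.15, 0.12 and -0.32 in lactation. Every lactation array lay above every dry array. The difference was 0.75 (SE 0.24, adjusted p = 0.39 in limma), with animal changes of 0.66, 0.86, 1.16 and 0.32. By the second probe, A_73_P335806, the ratios were -0.81, -0.67, -0.67 and -0.42 in the dry period and -0.20, -0.03, 0.00 and -0.13 in lactation. Again the groups did not overlap, with a difference of 0.56 (SE 0.11, adjusted p = 0.17 in limma).

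The other transporters were less even over animals. SLC2A3, the high-affinity transporter of neurons and white blood cells, read -0.40, -0.64, 0.58 and -0.27 in dry HF cows and -0.26, 0.58, 0.26 and 0.33 in lactation. These values overlap, and the difference of 0.41 (SE 0.29) held in 3 of 4 animals, with animal 3 at -0.32. Its 6 probes all had positive differences, from 0.15 to 0.61. SLC2A1, the basal transporter of most cells, read 0.67, 0.19, 1.37 and 0.74 in dry cows and 0.58, -0.03, 0.31 and 1.17 in lactation. It was lower in lactation in 3 of 4 animals and higher in animal 4, and its 3 probes had differences of -0.23 to -0.06.

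HK3, the hexokinase of myeloid cells that phosphorylates glucose on entry, had the widest spread of the 10 in dry HF cows (SD 0.85). It read -0.32, -0.94, 1.02 and 0.40 in dry HF cows and -0.57, -0.53, 0.02 and 0.60 in lactation. The states overlapped throughout, at a difference of -0.16 (SE 0.35), and animals 3 and 4 were the upper pair in both states, in opposite order.

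PFKFB3 and PFKFB4 set the level of the sugar bisphosphate that activates phosphofructokinase, the main control point of glycolysis. PFKFB3 read -0.36, -0.68, -0.01 and -0.51 in dry HF cows and 0.17, 0.57, 0.49 and 0.11 in lactation, with no overlap. The difference was 0.72 (SE 0.37, adjusted p = 0.70 in limma) and was positive in 4 of 4 animals. Its other probes gave 0.92 (SE 0.29) and 0.65 (SE 0.21), also without overlap. PFKFB4 read -0.62, -0.59, -0.27 and -0.59 in dry cows and -0.53, 0.21, 0.06 and -0.14 in lactation. It was higher in 4 of 4 animals by 0.09 to 0.80, though the groups overlapped because animal 1 stayed at -0.53.

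Of the enzymes of the lower pathway, PGK1, which makes the first ATP of glycolysis, had the most even change over animals. It read -0.44, -0.25, -0.18 and -0.32 in dry HF cows and -0.04, 0.40, 0.34 and -0.01 in lactation, without overlap. Its animal changes were 0.40, 0.65, 0.52 and 0.30, for a difference of 0.47 (SE 0.21, adjusted p = 0.60 in limma), and the other PGK1 probes both gave 0.69. GAPDH, the step before it and a gene often used as a constant reference, read -0.25, -0.53, -0.02 and -0.15 in dry cows and 0.06, 0.21, -0.12 and 0.12 in lactation. The difference was 0.30 (SE 0.12), positive in 3 of 4 animals, and all 8 GAPDH probes lay between 0.28 and 0.55, with 6 of them under 0.05 without adjustment.

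ENO1, the enolase of most tissues, read 0.00, -0.12, 0.17 and 0.07 in dry HF cows and 0.38, 0.12, 0.34 and 0.03 in lactation. Its 5 probes ranged from 0.18 to 0.38, and A_73_P456551, printed above, did not overlap between the states, reading -0.74, -0.79, -0.41 and -0.55 in dry cows and -0.28, -0.17, -0.11 and -0.40 in lactation. LDHA, which makes lactate, read -0.36, -0.01, -0.18 and -0.12 in dry cows and -0.16, 0.53, 0.36 and -0.03 in lactation. The difference was 0.34 (SE 0.22), positive in 4 of 4 animals, and the LDHA probe A_73_P362966 gave 0.65 (SE 0.22) without overlap, from -0.81, -0.79, -0.83 and -1.05 to -0.53, -0.04, 0.11 and -0.41. Within animals, the lactation change was most positive in animal 2 for 7 of the 10 genes.

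**Figure D1:**
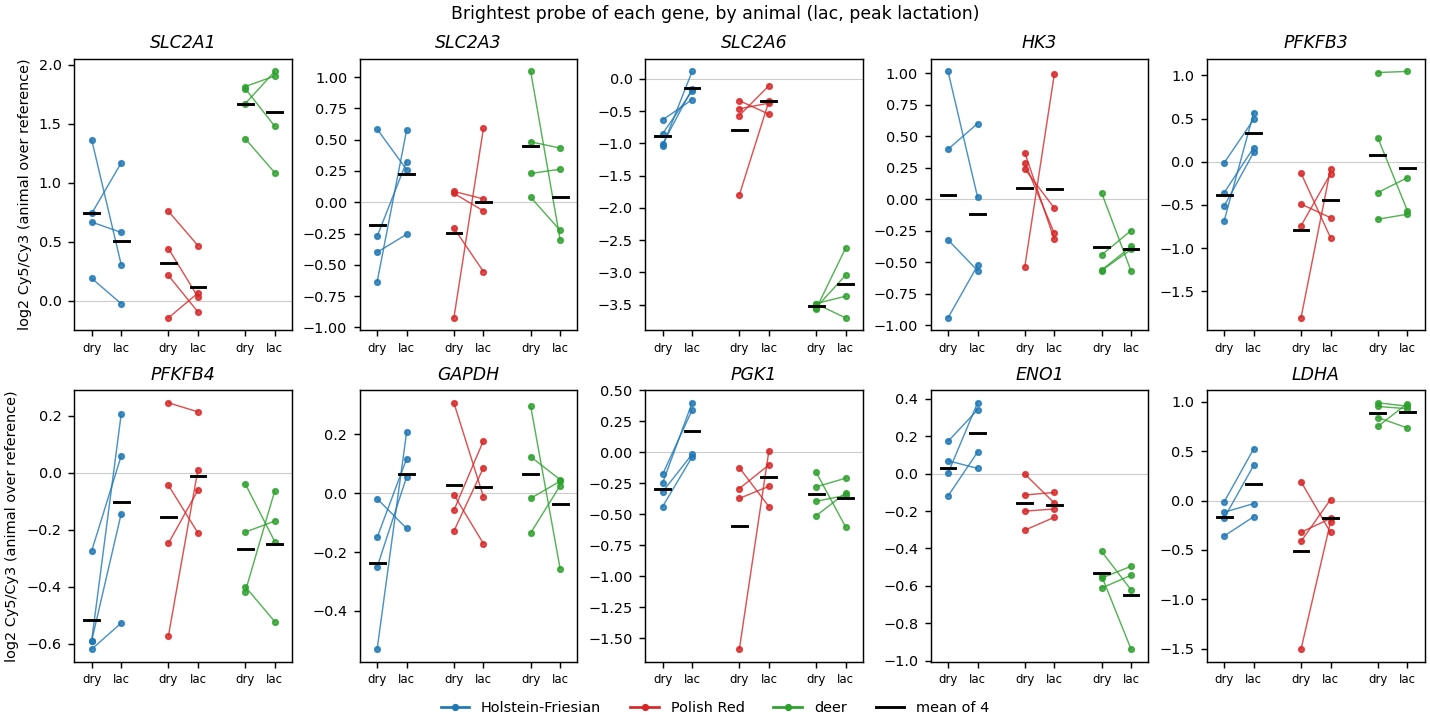
Log2 ratio of Cy5 to Cy3 (vertical axis) of the brightest probe of each of the 10 genes in the dry period and peak lactation; each line joins one animal's arrays, coloured by HF, PR or deer, and black bars are means of 4. SLC2A6, PFKFB3, PFKFB4, PGK1 and LDHA go up in all 4 HF animals, and the deer values of SLC2A6 lie far below those of cattle.

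The HF differences lay in the animals' dye and were uneven over slides. For the brightest probes the Cy3 reference signal differed between HF states by -0.10 to 0.03, with an adjusted p of 1.0 for each in limma, and the Cy5 signal alone differed by -0.21 to 0.74. In a fit of Cy5 alone the median of the 37 was 0.31, with 4 under 0.05 without adjustment. Each HF animal's arrays shared a slide. The lactation array was higher for 30 of 37 probes on the slide of animal 1 (median 0.29), 34 for animal 2 (0.79), 21 for animal 3 (0.13) and 33 for animal 4 (0.36). With array position as a factor the median of the 37 was 0.10, with 27 positive and 4 under 0.05 without adjustment, and LDHA turned to -0.23. Without both arrays of animals 2 and 3 it was 0.32, with 34 positive and 3 under 0.05. Shares over all probes are not given for these fits or for counts within slides, here and below. Such counts describe the 37 alone.

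**Figure D2:**
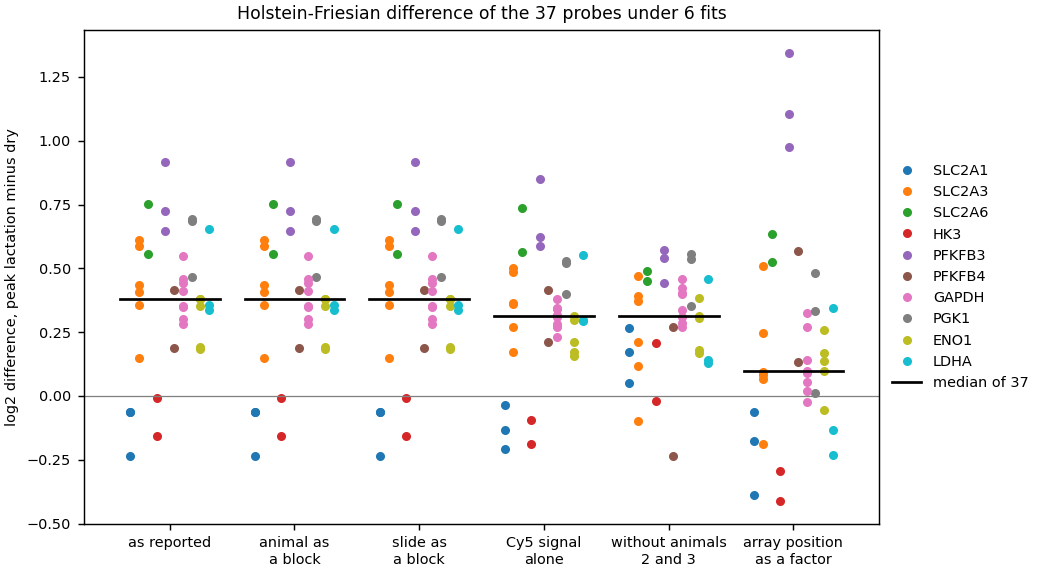
Lactation minus dry difference in HF cows (log2, vertical axis) of the 37 probes under 6 fits (horizontal axis), each point a probe and each bar the median of the 37. The median is 0.38 as reported and 0.10 with array position as a factor.

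White cell markers moved with the same comparison. Of 16 neutrophil markers tested, of 20 listed, 15 were higher in lactation in HF cows (10 higher and 1 lower at p under 0.05 without adjustment), with a median of 0.91, against 43.9% of all genes higher. Their mean log2 ratio ran from -0.98 to -0.31 on the dry arrays and from -0.39 to 1.23 on the lactation arrays. Of 13 monocyte markers tested, of 15, all 13 were higher (9 without adjustment), with a median of 0.62 and array means of -0.69 to -0.48 in dry cows and -0.29 to 0.26 in lactation. Lymphocyte markers were lower, with 10 of 11 for B cells (median -0.39), 11 of 11 for NK cells (-0.36) and 13 of 14 for T cells (-0.14), as were 8 of 8 platelet markers (-0.07) and 6 of 8 eosinophil and basophil markers (-0.14). Of the erythroid markers 9 of 12 were higher (0.06). The granule markers CAMP and CTSG and the macrophage marker MARCO were above background on at most 2 of the 4 arrays of either HF group. No marker was called in limma. Their part in the differences of the 10 genes was not tested.

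In PR cows the probes leaned less to one side. Of the 37, 25 were higher in lactation and 12 lower, with 56.1% of all probes positive, and the median was 0.07 against 0.02 for all probes. No probe was called by limma (0 of 37, against 0% of 32590 probes, none called in the whole table), and 1 was under 0.05 without adjustment, the LDHA probe A_73_P362966 at 0.52 (SE 0.22), against 4.21% of all probes higher. None of the 37 had groups that did not overlap, against 2.11% of all probes in either direction.

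The PR means rested on replicate 1 of the dry group, the array that stood apart in brightness. It read -1.80 for SLC2A6, against -0.57, -0.46 and -0.34 on the other dry arrays, and -1.81 for PFKFB3, against -0.49, -0.13 and -0.74. For PGK1 it read -1.59, against -0.12, -0.29 and -0.37, and for LDHA -1.51, against 0.19, -0.41 and -0.32. It was the lowest of its group for all of these. In lactation the same genes read -0.35, -0.11, -0.38 and -0.55 for SLC2A6, -0.08, -0.65, -0.88 and -0.14 for PFKFB3, 0.01, -0.44, -0.10 and -0.27 for PGK1, and -0.22, -0.32, 0.01 and -0.18 for LDHA. Without that array 16 of the 37 were higher and 21 lower, with a median of -0.03 and 0 under 0.05 without adjustment by limma. The share of all probes higher in that fit is not given.

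That array was also the lowest of its group for SLC2A3, at -0.92 against 0.09, 0.07 and -0.21, and for HK3, at -0.54 against 0.24, 0.29 and 0.37. The differences of the remaining PR genes, with that array and without it, were 0.24 and 0.015 for SLC2A3, -0.01 and -0.22 for HK3, -0.20 and -0.35 for SLC2A1 and 0.14 and 0.28 for PFKFB4. They were -0.01 and -0.06 for GAPDH and -0.02 and -0.06 for ENO1. ENO1 read -0.30, -0.20, -0.00 and -0.11 in dry cows and -0.23, -0.19, -0.16 and -0.10 in lactation. Within slides 34 of 37 were higher on the slide of animal 1 (median 0.54), 12 on the second PR slide (-0.15) and 16 on the third (-0.09), the second holding different animals in each state and the third holding animal 4 in both and animal 3 in lactation. The Cy3 reference itself differed between PR states, by 0.53 for SLC2A1 and -0.73 for PFKFB4 (adjusted p = 0.35 for both in limma). Monocyte markers were higher for 11 of 13 (median 0.53) and neutrophil markers for 12 of 16 (0.17), against 59.8% of all genes. The other markers were higher for 4 of 11 (B cell), 4 of 11 (NK), 9 of 14 (T cell), 2 of 7 (eosinophil and basophil), 3 of 8 (platelet) and 5 of 12 (erythroid). Their part was not tested here either.

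In deer most of the probes were lower in lactation. Of the 37, 31 were lower in lactation and 6 higher, with 52.4% of all probes higher, and the median was -0.15 against 0.01. No probe was called by limma (0 of 37, against 0.00599% of 33389 probes), and 5 were lower at p under 0.05 without adjustment (13.5%), against 3.55% of all probes. All 5 belonged to SLC2A3. Groups failed to overlap for 1 probe, SLC2A3 A_73_107738, lower in lactation by limma at -0.53 (SE 0.23), against 2.07% of all probes.

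SLC2A3 was thus the gene that differed most between the deer states. Its brightest probe read 0.48, 0.04, 0.23 and 1.05 in dry deer and 0.43, -0.23, 0.26 and -0.30 in lactation, a difference of -0.41 (SE 0.29). By A_73_P452126, printed above, it read 2.51, 2.38, 1.95 and 3.06 in dry deer and 2.07, 1.77, 2.20 and 1.5 in lactation, and by A_73_P333276 0.92, 0.79, 0.28 and 1.40 against 0.43, 0.12, 0.68 and 0.18. In each the dry value of animal 4 was the highest and the groups overlapped. The 6 probes ranged from -0.69 to -0.41, with a lowest adjusted p of 0.49 in limma. Without dry replicate 4, without lactation replicate 2 or without lactation replicate 4, none of the 37 was under 0.05 by limma without adjustment. Without both lactation arrays 2 and 4, whose ratios were less spread, a choice made after seeing the data, the brightest probe gave -0.10 and the median of the 37 was -0.10.

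The enzymes were close between the deer states by their brightest probes. GAPDH read 0.12, -0.14, -0.02 and 0.30 in dry deer and 0.05, 0.03, 0.04 and -0.26 in lactation. LDHA read 0.95, 0.99, 0.75 and 0.84 against 0.93, 0.96, 0.98 and 0.74, and PGK1 -0.39, -0.28, -0.51 and -0.16 against -0.35, -0.21, -0.33 and -0.60. In each of these genes the ranges of the states overlap. The differences were 0.02 for LDHA, -0.03 for PGK1, -0.12 for ENO1, -0.10 for GAPDH, 0.02 for PFKFB4, -0.15 for PFKFB3, -0.02 for HK3 and -0.06 for SLC2A1. All 8 GAPDH probes were lower in lactation, at -0.29 to -0.10, as were all 5 ENO1 probes, at -0.24 to -0.12. None of these was under 0.05 in limma without adjustment. SLC2A6 had 0.34 (SE 0.24), from lactation replicates 2 and 4 at -2.62 and -3.04, and -0.02 without both. On the one slide with both deer states, 21 of 37 probes were higher in lactation (median 0.04). Neutrophil markers were lower for 14 of 16 (median -0.39), with array means of -0.12 to 0.35 in dry deer and -0.83 to -0.08 in lactation, and erythroid markers for 10 of 12 (-0.11) and platelet markers for 7 of 8 (-0.17), against 54.5% of all genes higher. Monocyte markers were higher for 7 of 12, B cell for 7 of 11, NK for 5 of 11, T cell for 7 of 14 and eosinophil and basophil for 5 of 8. Their part was not tested.

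**Figure D3:**
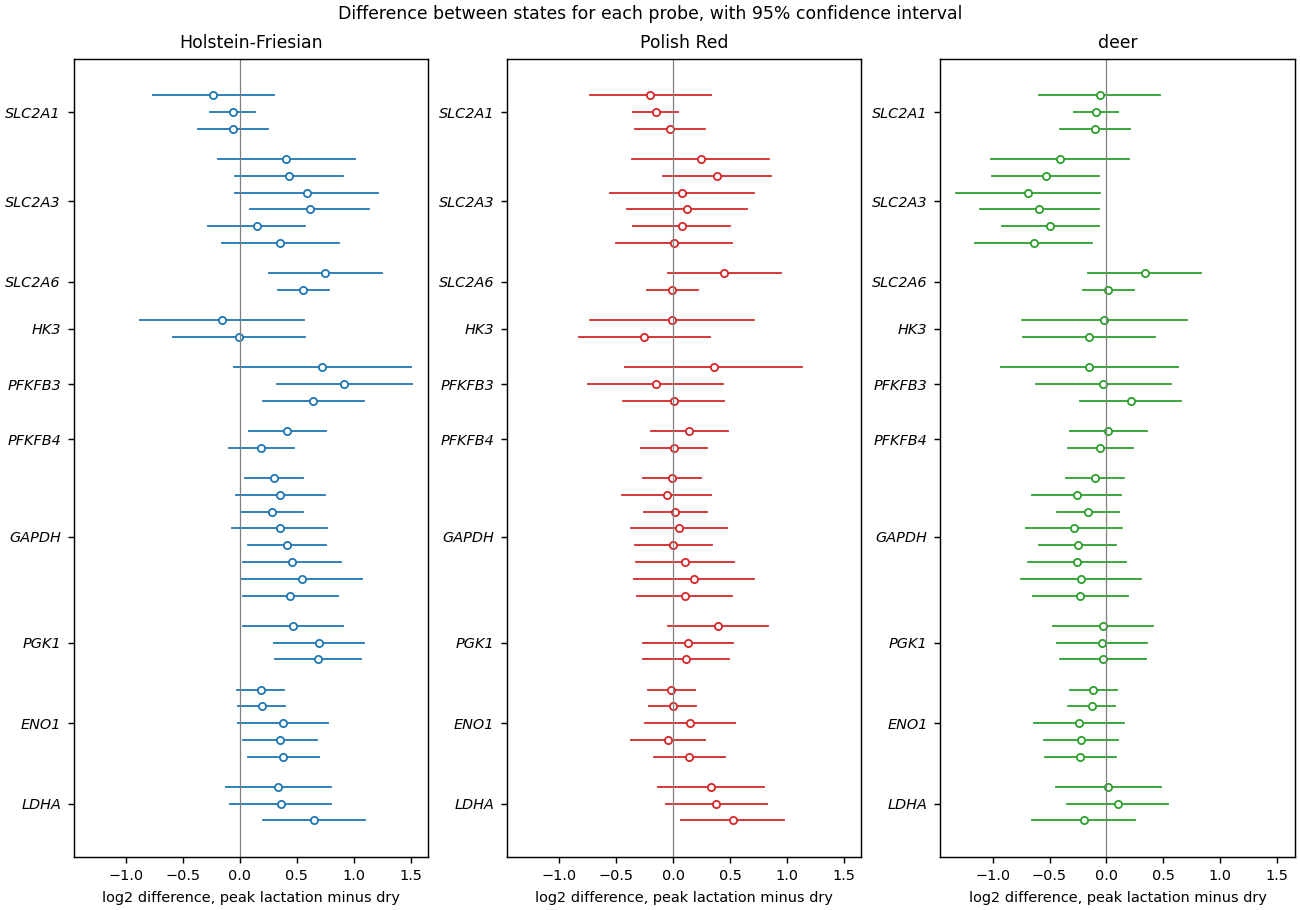
Peak lactation minus dry difference (log2, horizontal axis) of each of the 37 probes with its 95% confidence interval, in 3 panels for HF, PR and deer. Most HF probes lie to the right of 0, PR probes around 0 and the SLC2A3 probes of deer to the left.

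The state effects were then set against each other. For the mean of the HF and PR effects, 32 of the 37 were positive, against 53.5% of all probes, and 12 were under 0.05 without adjustment and higher, against 5.89%. No probe was called by limma (0 of 37, against 0.00299% of 33478), and the lowest adjusted p was 0.19, for LDHA A_73_P362966 at 0.59 (SE 0.15). The HF effect was above the PR effect for 33 of the 37, against 44.2% of all probes, with a median of 0.27 against -0.03. None was called by limma (0 of 37, against 0% of all probes), and 5 were under 0.05 without adjustment, against 1.3% of all probes higher. The 5 were SLC2A6 A_73_P335806 at 0.56 (SE 0.15), both less bright PFKFB3 probes at 1.07 (SE 0.40) and 0.64 (SE 0.30) and both less bright PGK1 probes at 0.56 (SE 0.27) and 0.57 (SE 0.26). With PR dry replicate 1 left out, the effect was higher in HF for all 37, with a median of 0.39 and 10 under 0.05 without adjustment. Shares over all probes in that fit are not given, so these counts are not read as a result about the 37.

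The deer effect was below the mean cattle effect for 34 of the 37, against 51.7% of all probes with a positive difference, and the median was -0.41. No probe was called by limma (0 of 37, against 0% of 35431), and 10 were lower at p under 0.05 without adjustment, against 3.8% of all probes. They included SLC2A3 A_73_107738 at -0.94 (SE 0.28), LDHA A_73_P362966 at -0.79 (SE 0.27) and ENO1 A_73_P456551 at -0.49 (SE 0.18), with a lowest adjusted p of 0.56. These comparisons share the cattle arrays with those above.

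Levels were compared between the breeds in each state. In the dry period 15 of the 37 were higher in HF and 22 lower, against 51.7% of all probes higher. No probe of the 37 was called by limma, against 2.62% of 32924, and 7 were under 0.05 without adjustment, of which 6 were lower in HF, against 6.69% of all probes lower. SLC2A6 A_73_P335806 came nearest: dry PR cows read -0.32, -0.46, -0.21 and -0.07, above most of the HF values given earlier, for a difference of -0.38 (SE 0.11, adjusted p = 0.060 in limma). The number of all probes called moved from 862 to 115 without PR dry replicate 1 and to 4191 without PR dry replicate 2, where 1 and 2 of the 37 were called, against 0.349% and 12.7% of all probes.

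At peak lactation 30 of the 37 were higher in HF than in PR, against 51.5% of all probes, with a median of 0.19. No probe was called by limma (0 of 37, against 0% of 32949), and 6 were higher at p under 0.05 without adjustment (16.2%), against 7.12% of all probes. For 6 probes, all 3 of PFKFB3 and 3 of ENO1, every HF array lay above every PR array, against 6.63% of all probes. ENO1 read 0.38, 0.12, 0.34 and 0.03 in HF and -0.23, -0.19, -0.16 and -0.10 in PR, a difference of 0.39 (SE 0.10, adjusted p = 0.10 in limma). Its probe A_73_P251276, which overlaps the brightest by 49 identical bases, gave 0.43 (SE 0.10, adjusted p = 0.095 in limma). PFKFB3 gave 0.77 (SE 0.37) by its brightest probe and 0.89 (SE 0.29) and 0.64 (SE 0.21) by the others. Neutrophil markers were higher in lactating HF than in lactating PR cows for 13 of 16 (median 0.46). Monocyte markers were higher for 10 of 13 (0.35), against 50.6% of all genes for both lists. The other marker lists are not given for this comparison, and the part of the markers was not tested.

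The largest differences were between the species, and here a level difference also holds any mismatch between deer RNA and the cattle probe, which cannot be told apart from abundance. In the dry period 24 of the 37 were called by limma (64.9%), against 56.6% of 35175 probes. Of these, 20 were higher in deer than in the mean of both breeds, against 26.2% of all probes, and 4 were lower, against 30.4%. At peak lactation 14 were called (37.8%), against 48.6% of 34265 probes, 7 higher and 7 lower, against 21.7% and 26.9%. The split depended on scaling. With median centring in place of loess, which moved the median of all probes to 0.21 in the dry period and 0.16 in lactation, it was 30 higher and 1 lower in the dry period, against 41.3% and 20% of all probes, and 20 and 2 in lactation, against 33.6% and 18.3%. The members' dry median was then 0.99. With Agilent's processed signals the split was 24 and 3, against 40.1% and 26.8% of all probes, then 11 and 7, against 37.5% and 28.4%. With loess and scaling between arrays it was 17 and 1, against 14.4% and 20.2%, then 7 and 8, against 20.6% and 24.7%. With array position as a factor 11 were called in the dry period, 8 higher and 3 lower, against 18.6% and 25% of all probes.

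SLC2A1 was higher in deer in both states. Dry deer read 1.67, 1.37, 1.82 and 1.80 and lactating deer 1.94, 1.09, 1.91 and 1.48, against at most 1.37 on any cattle array, so replicate 2 of each deer group lay near or below the highest cow. The difference was 1.14 (SE 0.22, 2.2-fold, adjusted p = 0.000159 in limma) in the dry period and 1.29 (SE 0.22, 2.45-fold, adjusted p = 5.02e-05) in lactation. With loess and scaling between arrays the dry difference was 0.33 with an adjusted p of 0.39. The other SLC2A1 probes gave 0.24 and 0.27 in the dry period, of which the first was called.

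SLC2A3 was higher in dry deer by every probe but in size depended on which was read. The 6 probes ranged from 0.41 to 2.69 in the dry period, 5 of them called higher, and from -0.54 to 1.73 in lactation, with 3 called higher and 1 lower. By A_73_P452126 the deer arrays all lay above the cattle arrays, whose dry values were -0.42, -1.0, 0.21 and -0.86 in HF and 0.17, -0.27, 0.23 and 0.20 in PR. The brightest probe gave 0.66 (SE 0.25, adjusted p = 0.030 in limma) in the dry period, a call lost without HF dry replicate 2 (adjusted p = 0.057), PR dry replicate 1 (0.056), deer dry replicate 1 (0.062) or deer dry replicate 4 (0.15), and with loess and scaling between arrays (0.19) or array position as a factor (0.40). In lactation it gave -0.07.

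SLC2A6 showed how far probes of one gene can part. By the brightest probe dry deer read -3.48, -3.57, -3.49 and -3.55 and lactating deer -3.37, -2.62, -3.71 and -3.04, below all cattle arrays. The differences were -2.68 (SE 0.21, 6.42-fold lower, adjusted p = 5.29e-10 in limma) and -2.95 (SE 0.21, 7.7-fold lower, adjusted p = 1.8e-10). The dry difference was -1.21 with loess and scaling between arrays (adjusted p = 0.019 in limma), and the mean of both probes gave -1.18 and -1.44. By A_73_P335806, printed above, deer read -0.11, 0.02, -0.39 and -0.03 in the dry period and -0.11, 0.08, -0.34 and -0.07 in lactation, overlapping the cattle arrays, which ran from -0.81 to 0.00. Its differences were 0.33 (SE 0.09, adjusted p = 0.0047 in limma), called higher, and 0.07 (SE 0.09).

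HK3 and PFKFB4 were not called by any probe in either state. HK3 read -0.56, -0.44, -0.57 and 0.05 in dry deer and -0.38, -0.25, -0.40 and -0.57 in lactating deer, for differences of -0.44 (SE 0.30, 95% interval -1.07 to 0.18) and -0.38, while its other probe was positive in both states. PFKFB4 read -0.40, -0.21, -0.42 and -0.04 in dry deer, a difference of 0.07 (SE 0.14, 95% interval -0.22 to 0.36). PFKFB3 read -0.36, -0.67, 1.03 and 0.28 in dry deer and -0.19, -0.61, 1.05 and -0.56 in lactation, with animal 3 the highest in both. By the brightest probe PFKFB3 gave 0.66 (SE 0.33, adjusted p = 0.088 in limma) in the dry period and -0.03 in lactation. The other 2 probes were lower in dry deer, down to -0.41. None of the 3 was called in the dry period (lowest adjusted p = 0.065 in limma). In lactation those 2 probes gave -0.81 (SE 0.25, adjusted p = 0.0098 in limma) and -0.52 (SE 0.18, adjusted p = 0.024), both called lower.

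GAPDH was not called between deer and cattle by its brightest probe, at 0.17 (SE 0.11, 95% interval -0.05 to 0.39) and -0.08 (SE 0.11, 95% interval -0.30 to 0.14). Of its 8 probes 5 were called higher in dry deer and 1 lower. The 3 printed above gave 0.63 (SE 0.14), 0.77 (SE 0.18) and 0.77 (SE 0.17), so these probes, which differ by single bases, gave similar values. A_73_100172, in contrast, gave -1.11 (SE 0.11, adjusted p = 4.04e-08 in limma) in the dry period and -1.43 (SE 0.11, adjusted p = 1.52e-09) in lactation; it overlaps the brightest probe by 36 bases with the changes C11G, G12A and C17T, counted from 1 at the 5′ end of A_73_P475903.

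PGK1 gave 0.11 (SE 0.18) in the dry period and -0.36 (SE 0.18) in lactation by its brightest probe, neither called, and 0.63 (SE 0.16) and 0.39 (SE 0.16) in the dry period by the others, both called higher. ENO1 read -0.55, -0.56, -0.61 and -0.42 in dry deer and -0.94, -0.50, -0.54 and -0.62 in lactation, below every cattle array. The difference was -0.47 (SE 0.09, adjusted p = 7.52e-05 in limma) and -0.67 (SE 0.09, adjusted p = 1.29e-06), but median centring turned the dry value to 0.31 and left -0.05 in lactation, and with loess and scaling between arrays the dry value was -0.26 (adjusted p = 0.063 in limma). A_73_P456551, printed above, read -0.02, 0.27, -0.51 and 0.26 in dry deer and gave 0.57 (SE 0.13, adjusted p = 0.00071 in limma), so ENO1 had probes called in both directions.

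LDHA was higher in dry deer by all 3 probes. Deer values by the brightest probe were 0.74 to 0.99 over both states, against at most 0.53 on any cattle array, with differences of 1.22 (SE 0.19, 2.33-fold, adjusted p = 1.42e-05 in limma) and 0.90 (SE 0.19, 1.87-fold, adjusted p = 0.00053). A_73_P362966 read 1.54, 1.28, 0.72 and 1.37 in dry deer and 1.1, 1.19, 0.84 and 0.98 in lactation. It gave 1.84 (SE 0.19) and 1.05 (SE 0.19), and dry PR cows, at -1.19, -0.34, -0.01 and 0.15, lay below those values. The third probe, A_73_119375, gave 0.70 in the dry period, called higher, and 0.43 in lactation, not called (adjusted p = 0.064 in limma). By that probe lactating deer read 0.38 to 0.50 and lactating HF cows up to 0.47, so the ranges overlapped.

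**Figure D4:**
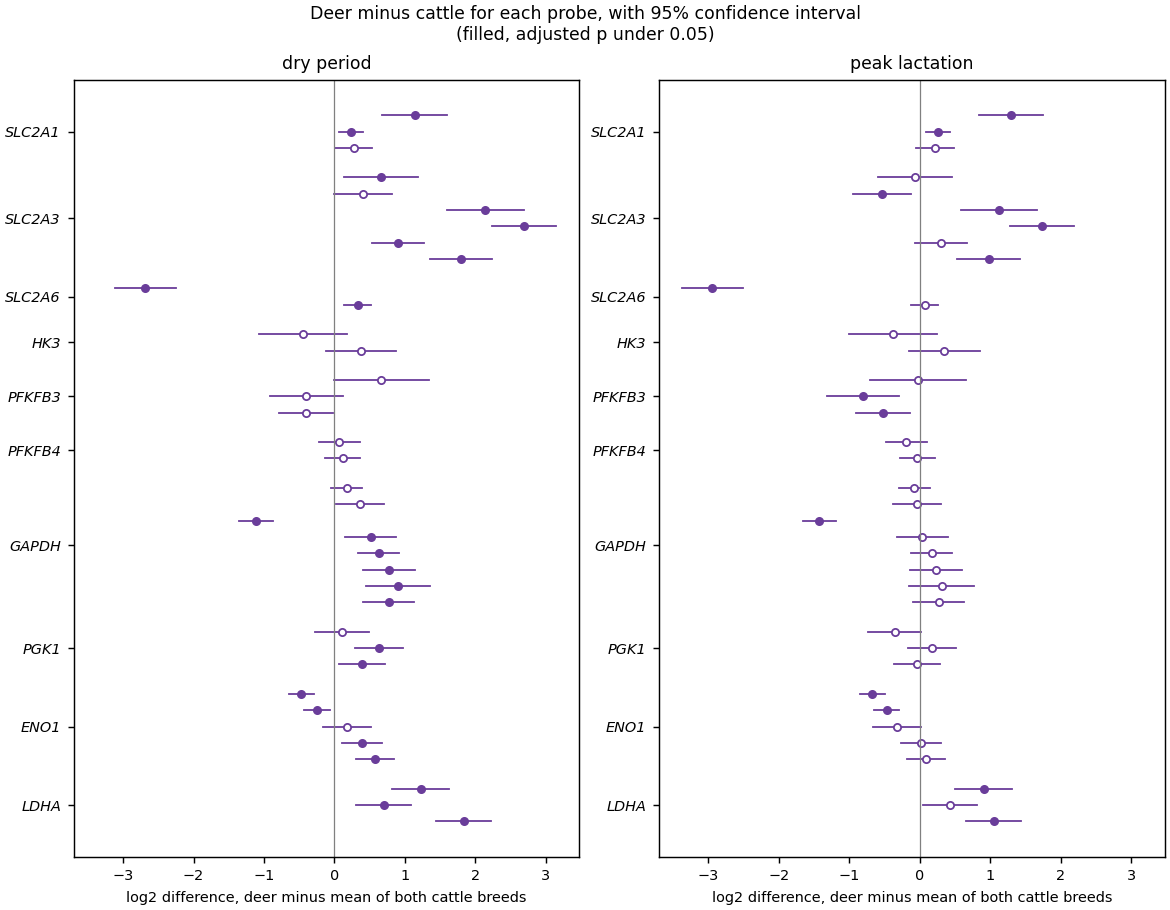
Deer minus the mean of both cattle breeds (log2, horizontal axis) for each of the 37 probes with its 95% confidence interval, in the dry period and in peak lactation; filled points have an adjusted p under 0.05. The LDHA probes lie to the right of 0, and the SLC2A6 and ENO1 probes fall on both sides in the dry period.

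Ordering the 6 groups by mean ratio of the brightest probe gave few clear steps. The array ranges of neighbouring groups failed to overlap between HF dry and deer lactation for SLC2A6, between PR lactation and deer dry for ENO1, and between deer dry and HF lactation for LDHA. All other neighbours overlapped. The order from high to low was deer dry, deer lactation, HF dry, HF lactation, PR dry and PR lactation for SLC2A1, and HF lactation, deer dry, deer lactation, HF dry, PR lactation and PR dry for PFKFB3. For PGK1 it was HF lactation, PR lactation, HF dry, deer dry, deer lactation and PR dry.

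Genes of neighbouring pathways, in lists chosen with earlier results of these data known, were read by 1 probe each, with p-values adjusted over all probes tested. In HF cows none was called by limma between the states. Other glycolytic enzymes were higher in lactation for 11 of 20 tested (2 under 0.05 without adjustment, median 0.03), other glucose transporters for 1 of 4 (0 without adjustment, -0.01) and lactate and pyruvate genes for 10 of 15 (1, 0.04). Pentose phosphate genes were higher for 6 of 7 (1, 0.07), glycogen genes for 10 of 13 (2, 0.08), gluconeogenic genes for 3 of 7 (0, -0.05) and hypoxia response genes outside glycolysis for 12 of 18 (6, 0.12). The 10 members were also chosen with earlier results of these data known. Their medians were 0.34 for the 7 enzymes and 0.41 for the 3 transporters, the latter being the value of SLC2A3, with SLC2A1 lower in lactation. The neighbours lay closer to the -0.02 of all genes. That choice can itself set the members apart, so no conclusion is drawn from the gap.

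Between the states in PR cows and deer no neighbour was called either. The counts higher in lactation, PR first and deer second, were 12 of 19 and 8 of 20 for other glycolytic enzymes, 3 of 4 and 3 of 6 for transporters, and 13 of 15 and 10 of 16 for lactate and pyruvate genes. They were 4 of 7 and 5 of 7 for pentose phosphate genes, 9 of 13 and 7 of 13 for glycogen genes, 1 of 7 and 4 of 6 for gluconeogenic genes, and 11 of 18 and 11 of 17 for hypoxia response genes. Without adjustment at most 2 genes of a list in PR and at most 3 in deer were under 0.05 in either direction. In dry cows 2 lactate and pyruvate genes were called higher in HF than PR, against 3.19% of all genes called in either direction. They were PDK1 at 1.04 (SE 0.26, adjusted p = 0.037 in limma) and PDHA1 at 0.49 (SE 0.13, adjusted p = 0.044), a kinase and a subunit of pyruvate dehydrogenase. Both values include PR dry replicate 1, and no fit without that array is given for these genes.

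Between species in the dry period 57.1% of all genes were called. Other glycolytic enzymes split into 6 higher in deer and 6 lower of 20, led by PGAM1 at -1.64 (SE 0.11), ALDOC at -1.51 (SE 0.18) and PFKM, muscle-type phosphofructokinase, at 1.08 (SE 0.16). Pentose phosphate genes, the NADPH-making branch, had 6 of 7 called lower and 1 higher, with PGD at -3.10 (SE 0.21), TKT at -2.18 (SE 0.19) and TALDO1 at -0.81 (SE 0.12). Glycogen genes had 5 higher and 6 lower of 13, with the phosphorylase PYGL at -3.84 (SE 0.20), PGM2 at -1.26 (SE 0.16) and PHKB at -0.91 (SE 0.11). Lactate and pyruvate genes had 8 higher and 5 lower of 16, with PDK1 at -2.53 (SE 0.22) and PDK4 at -1.75 (SE 0.21). The 8 include the lactate carrier SLC16A7, above background on at most 1 array of any cattle group and all 4 of each deer group. It passed the filter only through the deer arrays, so its call is not read as a result.

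Hypoxia response genes had 6 higher and 5 lower of 18, with ERO1A at 2.37 (SE 0.14), DDIT4 at 1.84 (SE 0.33) and EGLN1 at -1.41 (SE 0.22). Gluconeogenic genes had 2 lower of 7, FBP1 at -2.50 (SE 0.41) and SLC37A4 at -0.99 (SE 0.09), with PCK2 at -0.16 (SE 0.12) not called. Other transporters had 2 higher and 1 lower of 6, with SLC2A13 at -2.01 (SE 0.19) and SLC2A8 at 0.59 (SE 0.08). The 2 higher include SLC5A2, which was above background on at most 1 array of any cattle group. SLC5A2 too passed the filter only through the deer arrays, so its call is not read as a result. In lactation the calls, higher first, were 5 and 4 for glycolytic enzymes, 2 and 2 for transporters, 7 and 5 for lactate and pyruvate, 1 and 5 for pentose phosphate, 4 and 6 for glycogen, 0 and 2 for gluconeogenesis and 7 and 6 for hypoxia response, against 49.9% of all genes called. The counts can hold other genes that passed the filter in 1 species alone. As in the 10 members, mismatch and abundance cannot be told apart here.

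Between species in dry animals the marker lists were called, higher in deer first, for 9 and 2 of 16 neutrophil, 6 and 6 of 13 monocyte, 2 and 4 of 14 T cell, 2 and 4 of 11 B cell, 4 and 3 of 11 NK, 2 and 3 of 9 eosinophil and basophil, 2 and 2 of 8 platelet, and 1 and 1 of 13 erythroid markers. SLC4A1, FCGR1A, MARCO, CAMP and CTSG were above background on 0 arrays of either deer group. Their part in the species differences was not tested.

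Over the 16 cattle arrays, from 8 animals bled in both states and sharing slides, the 10 genes were set against each other. These correlations describe the arrays, and many moved with PR dry replicate 1, so each is given with it and then without it. PGK1 and LDHA had a Pearson r of 0.95 with it and 0.85 without, PFKFB3 and PGK1 0.88 and 0.77, and SLC2A6 and PGK1 0.80 and 0.53. SLC2A6 and LDHA had 0.72 and 0.34, and PFKFB3 and LDHA 0.76 and 0.49. PFKFB4 went the other way, with -0.06 and 0.51 for PGK1 and 0.13 and 0.64 for SLC2A6, while SLC2A1 and PFKFB4 had -0.49 and -0.41. With the mean of the monocyte markers PGK1 had 0.81 and 0.87, PFKFB3 0.79 and 0.74, SLC2A6 0.74 and 0.67, LDHA 0.71 and 0.67, PFKFB4 0.42 and 0.72, HK3 0.13 and 0.01 and SLC2A1 -0.12 and -0.32. With the neutrophil markers PGK1 had 0.58 and 0.72, SLC2A6 0.65 and 0.72, PFKFB3 0.61 and 0.64, PFKFB4 0.52 and 0.67, LDHA 0.47 and 0.51, HK3 0.25 and 0.20 and SLC2A1 -0.10 and -0.19. SLC2A3 had 0.67 and 0.57 with monocyte and 0.60 and 0.58 with neutrophil markers. GAPDH had 0.41 and 0.40, then 0.35 and 0.34, and ENO1 0.45 and 0.34, then 0.45 and 0.40. With the eosinophil and basophil markers HK3 had 0.67 and 0.69 and SLC2A1 0.56 and 0.59. SLC2A1 had 0.57 and 0.49 with B cell markers, and PFKFB4 -0.68 and -0.60 with T cell markers. B cell markers gave 0.12 and -0.66 for SLC2A6, 0.30 and -0.56 for PGK1 and -0.63 and -0.54 for PFKFB4. With platelet markers PGK1 had -0.31 and -0.57 and LDHA -0.38 and -0.66. With eosinophil and basophil markers PGK1 had -0.28 and -0.54 and LDHA -0.28 and -0.53. The other values, of either sign, are not given, and the part of these markers was not tested.

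**Figure D5:**
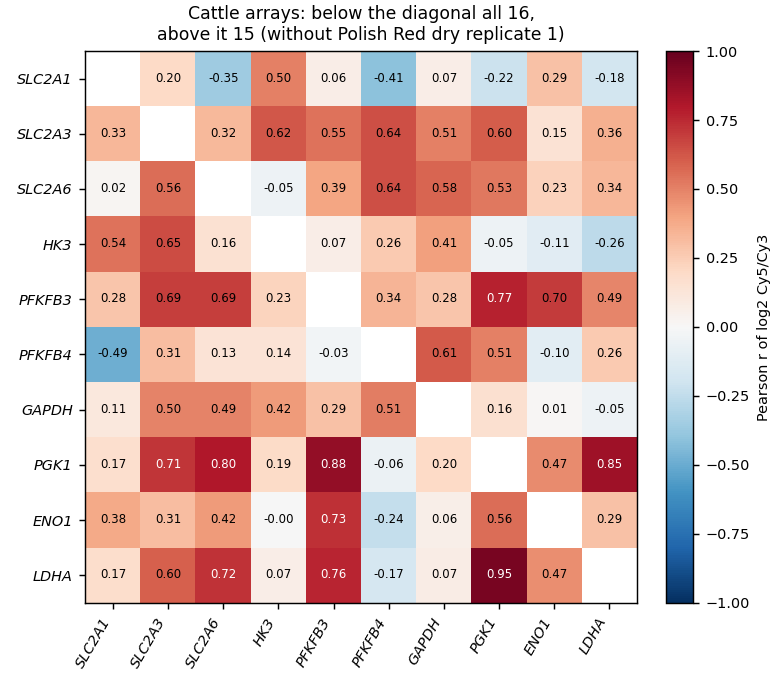
Pearson r of log2 ratios between each pair of the 10 genes (brightest probes, colour scale), below the diagonal over 16 cattle arrays and above it over the 15 without PR dry replicate 1. PGK1 and LDHA have 0.95 and 0.85, and SLC2A1 and PFKFB4 have negative values in both.

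By the same measure, over 16 arrays and 12722 genes, the genes most like each member were SOCS2 (r = 0.89) and FBXO34 (0.88) for SLC2A1, OAZ1 (0.92) and PDK3 (0.90) for SLC2A3, and ADISSP (0.94) for SLC2A6. They were GAPT (0.93) and GPR4 (0.91) for HK3, MKNK1 (0.96) and SMAP2 (0.95) for PFKFB3, CD300A (0.90) and SIRPA (0.89) for PFKFB4, and SOCS3 (0.85) and GGA1 (0.83) for GAPDH. For PGK1 they were SNX3 (0.97) and SRI (0.97), for ENO1 CTSC (0.92) and ESPL1 (0.86), and for LDHA RNF13 (0.98) and ELOC (0.96). Each is the top of 12722 values and so high by selection. The ranking includes PR dry replicate 1. Without that array r fell to 0.89 for ADISSP, 0.91 for SRI, 0.93 for RNF13 and 0.89 for ELOC, among others. It rose to 0.90 for SOCS2 and 0.85 for GGA1.

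The authors' deposited table for HF, of 437 probes chosen on these samples by their own test, holds 4 of the 37 probes (10.8%), against 1% of all probes in that table. They are both SLC2A6 probes and the PGK1 probes A_73_P050408 and A_73_P352526. In the authors' deposited table the SLC2A6 brightest probe has a mean of -0.23 over dry HF cows and 0.44 over lactating ones, and A_73_P335806 -0.54 and 0.06. In the same authors' deposited table the PGK1 probes go from -0.34 to 0.38 and from -0.42 to 0.34. The authors' deposited tables for PR, of 158 probes, and for deer, of 576, hold 0 of the 37, against 0.362% and 1.32% of all probes. At shares this low, 0 of 37 does not set PR or deer apart from HF.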

How the data were processed

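The 10 genes, the pathway lists and the marker lists were chosen with earlier results of these data known. Per the file headers, the 24 spot files give per spot a mean intensity and a local background in both dyes, processed signals, and a log ratio that is the log10 of processed Cy5 over Cy3. Feature Extraction is 10.7.3.1 per the submitters' processing notes and 10.10.1.1 per the file headers. The authors' deposited tables hold log2 ratios, selected by analysis of variance with Tukey's test per the series text; further steps are not given in the sources used here.

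Mean signals were corrected by normexp (offset 50) and log2 ratios of Cy5 over Cy3 were adjusted by loess within arrays, with 1417 control spots and spots with outlier flags left out; spots of 1 probe were averaged. limma 3.58.1 (R 4.3.3, statmod 1.5.0, version 1.17.8 of data.table) fitted 6 group means over 24 arrays, without an animal term. A probe had to exceed background in Cy5, by the scanner's own flag, on 3 or more of the 4 arrays of a compared group, and p-values were adjusted by Benjamini-Hochberg over all probes tested. The fit was tested on simulated data. p-values measure the spread between arrays within groups, pooled over the 6 groups, and treat the arrays of an animal as independent. The 4 arrays a group limit the precision.

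All 10 genes are named, each by its probe of highest mean intensity; from each other pathway list the 3 genes of largest difference between species in the dry period, and for each member the 2 genes with the highest Pearson r over the 16 cattle arrays. A gene that these rules or the marker lists would name is in some cases not reported here. PDK1 and PDHA1 are also named between breeds, after their values were seen. Symbols came from RefSeq by accession or symbol for 32855 probes. Subject numbers pair arrays of 1 animal, per the series text. With group means removed, an animal's arrays correlated above 0.1 across probes for 4 of 4 HF cows, 2 of 4 PR cows and 4 of 4 deer. Other settings tried were the background correction, normalization, channel, filters, slide, position, animal block, array weights, Tukey's test and arrays left out. Figures used matplotlib 3.10.9 and pandas 2.3.3 in Python 3.11.15.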

Additional observations from a re-analysis of the deposited data

Results flagged for a closer look

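In 5 of the 60 groups of 4 arrays (8.33%, 10 genes by 6 groups, brightest probes) 1 array lay far from the other 3, its gap to the nearest of them taking up more of the group's range than Dixon's 95% critical value; chance gives about 1 in 20. Of these, 3 were on PR dry replicate 1, the array with the high Cy5 brightness: SLC2A6 at -1.80, PGK1 at -1.59 and HK3 at -0.54, each the lowest of its group. PFKFB4 in HF dry replicate 3 was at -0.27, above the other dry cows, and GAPDH in deer lactation replicate 4 was at -0.26, below the other lactating deer. No cause was tested.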

How the results depend on the processing

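Of the log2 differences of the 10 genes under the alternatives, 1252 kept their direction and their side of the threshold or moved by less than the spread, 97 reversed, 27 moved, 15 passed the threshold newly and 9 lost it; no cause was tested. With 4 arrays a group, differences near 0 have no settled sign. The animal as a replicate block changed no call of the 37 probes between states, where the lowest adjusted p in limma was 0.090 in HF, 0.69 in PR, 0.44 in deer and 0.080 for the cattle mean, and it left 12 HF probes under 0.05 without adjustment. As a random replicate block it left 24 and 14 species calls. Shares over all probes are not given for the fits with an animal block, so these counts describe the 37 alone. Slide as a fixed block could not be fitted between species, the array weights did not converge, and Tukey's test was run for pairs of groups only.

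For HF against PR in the dry period, calls among the 37 were 1 by Tukey's test unadjusted (5.4% of all probes), 5 with array weights (15.4%), 1 with loess and scaling between arrays (4.51%), 2 with median centring (18.2%), and 0 to 2 without single arrays. In lactation they were 2 by Tukey's test unadjusted (2.96%), 3 with array weights (2.45%) and 3 with scaling (5%). Between the HF states they were 3 by Tukey's test unadjusted (1.12%) and 1 with array weights (0.0634%). Array weights gave 13 for the deer against the cattle effect (12.7%) and 13 between the deer states (22.4%). Between species, array position left 11 dry calls (43.7%) and median centring gave 22 in lactation (51.9%); without both deer lactation arrays 2 and 4, chosen after seeing the data, 12 were left in lactation (49.5%). Calls over all probes ranged from 0 to 372 for HF states (3 as reported), 0 to 134 for PR (0), 0 to 7472 for deer (2), 0 to 5998 for dry HF against PR (862), 0 to 1649 for lactating (0), 0 to 4512 for the deer against the cattle effect (0), 0 to 14 for the cattle mean (1), 12198 to 23540 for dry species (19925) and 13049 to 22554 for lactating species (16646).

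The reversed values, lactation minus dry unless between species, were as follows. Agilent's processed signals gave LDHA -0.0064, PFKFB4 -0.21 and SLC2A1 0.088 in deer and PFKFB3 0.020 between lactating species. Cy5 alone gave HK3 0.16, PFKFB4 -0.58 and SLC2A1 0.33 in PR, HK3 0.090 and PGK1 0.064 in deer, PFKFB4 -0.37 between dry species, and GAPDH 0.15, PFKFB3 0.32 and SLC2A3 0.14 between lactating species. Array position gave LDHA -0.23 in HF, -0.049 in PR and -0.13 in deer, SLC2A3 -0.079 in PR and PGK1 -0.11 between dry species. Array weights gave LDHA -0.12 in deer, SLC2A3 -0.011 in PR and PGK1 -0.016 between dry species. Without HF animals 2 and 3, SLC2A1 was 0.17 in HF, and PFKFB3 0.072 and SLC2A3 0.026 between lactating species. Without deer lactation arrays 2 and 4, PFKFB3 was 0.36, PFKFB4 -0.027, SLC2A1 0.26 and SLC2A6 -0.016 in deer, and GAPDH 0.00047, PFKFB3 0.48 and SLC2A3 0.24 between lactating species. Loess with scaling gave PFKFB4 -0.085, SLC2A1 0.55 and SLC2A6 -1.15 in deer. The mean of a gene's probes gave ENO1 0.045 and GAPDH 0.050 in PR, LDHA -0.029, PFKFB3 0.012 and PFKFB4 -0.018 in deer, ENO1 0.085 and PFKFB3 -0.047 between dry species, and SLC2A3 0.59 between lactating ones. Median centring gave ENO1 0.30, GAPDH 0.33 and HK3 0.064 in PR, LDHA -0.036 and PFKFB4 -0.072 in deer, ENO1 0.31 and HK3 0.084 between dry species, and GAPDH 0.58, HK3 0.078, PFKFB3 0.48, PGK1 0.097 and SLC2A3 0.47 between lactating ones. A normexp offset of 0 gave LDHA -0.030 in deer. Slide as a fixed block gave HK3 0.085 in PR, and HK3 0.093 and PGK1 0.037 in deer.

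Without single arrays the ranges that crossed 0 were -0.48 to 0.17 for HK3 in HF, and in PR -0.065 to 0.035 for ENO1, -0.061 to 0.084 for GAPDH and -0.31 to 0.13 for HK3. In deer they were -0.081 to 0.13 for HK3, -0.027 to 0.073 for LDHA, -0.53 to 0.17 for PFKFB3, -0.045 to 0.11 for PFKFB4, -0.093 to 0.042 for PGK1 and -0.17 to 0.11 for SLC2A1. Between dry species they were -0.0056 to 0.14 for PFKFB4 and -0.057 to 0.19 for PGK1, and between lactating species -0.40 to 0.15 for PFKFB3 and -0.20 to 0.044 for SLC2A3.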
